A study of Mus musculus with 15 samples.

Results

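Hmox1 and 9 further genes of the NRF2 antioxidant system (Nqo1, Srxn1, Txnrd1, Gclc, Gclm, Slc7a11, Gstm1, Nfe2l2 and Keap1) were examined in whole mouse kidney. They were taken by name, through the 12 probe sets annotated to 1 of these symbols alone, and are 10 of the 22180 genes covered by the 23521 probe sets that name 1 gene. All 10 were measured. They were chosen by name with the knockout minus wild-type values of these same arrays already known, so their differences between genotypes are descriptions, given with a standard error (SE), and where a count of them past a threshold stands beside the share of all probe sets, nothing is read from it.

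The samples were kidneys of 8 Grhl1-/- mice (replicates 8 to 15) and of 7 Grhl1+/+ mice (wild type, replicates 1 to 7) at an age of about 6 months. Grhl1 is a grainyhead-family transcription factor found in epithelia. The sources used here do not give which part of the gene was removed, the kind of allele, sex, strain or litter. Each array is taken as 1 mouse, and the comparison asks what differs in kidney without Grhl1.

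NRF2, encoded by Nfe2l2, is a transcription factor that KEAP1 marks for degradation in unstressed cells. Oxidants and electrophiles modify KEAP1, NRF2 then accumulates and, with a small MAF partner, binds antioxidant response elements in genes for glutathione synthesis, thioredoxin reduction and detoxification, many of which are well expressed in the kidney's proximal tubule. Hmox1 encodes haem oxygenase 1, which breaks haem down to biliverdin, iron and carbon monoxide. It is an NRF2 target that the repressor BACH1 holds off, and it is also known as a stress protein that responds to haem and, in rodents, to heat, as do Hspa1a and Hspa1b, which encode the stress-inducible HSP70 chaperones. The second question was therefore whether Hmox1 varied from mouse to mouse with the NRF2 targets or with Hspa1a and Hspa1b.

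Values are log2 intensities per probe set after RMA, the authors' background correction, array equalisation and probe summary. Differences are knockout minus wild type on that log2 scale, and a difference of 1 is a doubling. Groups are given as mean ± SD with n = 8 knockout and n = 7 wild-type mice. Levels of different genes are not compared, because each probe set has its own brightness.

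The kidney label was borne out by 12 proximal tubule markers, whose mean lay between 12.52 and 12.59 in knockout kidneys and between 12.50 and 12.57 in wild-type kidneys. Grhl1 itself read 4.40 to 4.92 in knockout kidneys and 4.96 to 5.25 in wild-type kidneys (difference -0.38, SE 0.07, limma adjusted p = 0.113), on a probe set that checks the labels only if it lies in the deleted part. The 15 arrays had medians of 5.51 to 5.59 and correlated pairwise at 0.976 to 0.991. Liver markers stood over 1 log2 unit above the median of all samples in knockout replicate 10 and wild-type replicates 3 and 7, and adrenal cortex markers in knockout replicates 10 to 13 and wild-type replicates 2 and 3. The mean of 3 Y-linked genes (Eif2s3y, Uty and Kdm5d) was 8.37 to 8.68 in 10 kidneys, namely knockout replicates 8 to 12 and wild-type replicates 1 to 5, and 3.96 to 4.26 in the other 5. These are called the kidneys with and without Y-linked transcripts. Male and female mice would give this split, but the labels do not give sex.

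RefSeq promoters (GRCm38.p6, from 250 bases before to 50 bases after the start) were at hand for 8 of the 10 genes and for both HSP70 genes. None was at hand for Hmox1 or Gclc, so these genes were not searched. The antioxidant response element core TGACNNNGC, searched on both strands, was found in 4 of their 11 promoters, against 12.4% of all 32851 promoters in the table. By gene, 4 of the 8 (Txnrd1, Gclm, Nfe2l2 and Srxn1) held it in at least 1 promoter, against 14% of all 27025 genes in the table. A match describes these letters only and is no evidence of binding. The 3 promoters below are among those that hold the core, in capitals as it reads on the gene's strand. That of Srxn1 is not printed. The promoters of Nqo1, Slc7a11, Keap1 and Gstm1 and the other promoters of Txnrd1 held no core and are not printed either.
Txnrd1 promoter, chr10:82858956-82859255, plus strand: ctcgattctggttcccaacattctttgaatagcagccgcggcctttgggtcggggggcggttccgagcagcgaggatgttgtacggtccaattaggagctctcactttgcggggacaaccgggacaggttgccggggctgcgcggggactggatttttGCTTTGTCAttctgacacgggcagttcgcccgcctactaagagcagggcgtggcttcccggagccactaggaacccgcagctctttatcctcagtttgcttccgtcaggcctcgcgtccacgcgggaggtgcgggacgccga
Gclm promoter, chr3:122245307-122245606, plus strand: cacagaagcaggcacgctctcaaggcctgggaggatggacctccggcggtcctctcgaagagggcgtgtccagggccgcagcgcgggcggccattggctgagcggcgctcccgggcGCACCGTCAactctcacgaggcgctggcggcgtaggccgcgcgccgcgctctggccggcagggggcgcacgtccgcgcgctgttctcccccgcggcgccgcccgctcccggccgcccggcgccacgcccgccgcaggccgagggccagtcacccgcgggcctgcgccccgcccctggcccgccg
Nfe2l2 promoter, chr2:75704614-75704913, minus strand: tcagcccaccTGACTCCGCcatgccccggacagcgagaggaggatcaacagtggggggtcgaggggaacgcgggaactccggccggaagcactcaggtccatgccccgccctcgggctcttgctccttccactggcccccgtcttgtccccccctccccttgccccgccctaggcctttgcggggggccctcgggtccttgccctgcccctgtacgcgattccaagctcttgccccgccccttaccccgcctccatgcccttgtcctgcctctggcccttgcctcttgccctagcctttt
The core begins 92 bases before the start in Txnrd1 (1 of 3 annotated promoters), 134 bases before it in Gclm and 240 bases before it in Nfe2l2.

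Heat shock elements are built from repeated GAA units in alternating direction. The paired form GAANNTTC occurred in 7.86% of all promoters, and it was found once in each HSP70 promoter, 104 bases before the start, shown in capitals. The other paired form searched, TTCNNGAA, occurred in 8.52% of all promoters and was not found in these letters of either HSP70 promoter.
Hspa1a promoter, chr17:34972107-34972406, minus strand: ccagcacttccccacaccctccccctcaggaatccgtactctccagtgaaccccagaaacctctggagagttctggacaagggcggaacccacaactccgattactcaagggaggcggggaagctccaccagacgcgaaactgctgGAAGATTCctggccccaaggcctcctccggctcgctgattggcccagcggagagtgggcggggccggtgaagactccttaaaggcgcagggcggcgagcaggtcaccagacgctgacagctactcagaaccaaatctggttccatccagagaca
Hspa1b promoter, chr17:34959189-34959488, minus strand: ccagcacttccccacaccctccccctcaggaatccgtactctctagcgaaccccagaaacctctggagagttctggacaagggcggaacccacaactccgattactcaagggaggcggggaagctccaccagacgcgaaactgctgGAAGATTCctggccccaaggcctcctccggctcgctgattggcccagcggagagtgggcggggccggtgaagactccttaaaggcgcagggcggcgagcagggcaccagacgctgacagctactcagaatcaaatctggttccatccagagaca
The pair is printed because it shows how alike the 2 genes are: 4 of 300 bases differ between these promoters. Their transcripts are near copies too, so a probe set named for one may also read the other, and the same holds for Gstm1 and its close paralogs.

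Hmox1 was lower in knockout kidneys. It read 7.91, 7.71, 7.57, 7.77, 7.65, 7.11, 7.25 and 6.97 in knockout replicates 8 to 15, against 8.05, 8.36, 8.60, 8.11, 8.44, 7.19 and 7.86 in wild-type replicates 1 to 7. The groups overlapped, since wild-type replicates 6 and 7 lay within the knockout range. Hmox1 averaged 7.49 ± 0.34 in knockout and 8.09 ± 0.47 in wild-type kidneys, a difference of -0.59 (SE 0.19), or 1.51-fold lower. Of the 23521 probe sets tested, 96 (0.408%) had a difference at or below that of Hmox1.

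The spread of Hmox1 within each genotype followed the Y-linked transcripts. In kidneys with them Hmox1 was 0.61 higher than in kidneys without them among knockout mice and 0.79 higher among wild-type mice, and in neither genotype did the 2 kinds of kidney overlap, a pattern shared by 3298 of 23521 probe sets (14%). Among the 10 kidneys with Y-linked transcripts the genotypes did not overlap either. All 5 knockout values there, 7.57 to 7.91 with a mean of 7.72 ± 0.13, lay below all 5 wild-type values, 8.05 to 8.60 with a mean of 8.31 ± 0.23, and the difference was -0.59 (SE 0.11). Among the 10 genes Hmox1 was the 1 that did so, at a background of 1.73% of probe sets without overlap in either direction and 0.719% in that direction.

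Among the 5 kidneys without Y-linked transcripts Hmox1 averaged 7.11 in 3 knockout and 7.53 in 2 wild-type mice, and the groups overlapped. There 4 of the 10 genes (Gclc, Gclm, Nfe2l2 and Gstm1) were without overlap, against 24.7% of probe sets in groups this small. With the Y-linked mean added to the model the Hmox1 difference over all 15 mice was -0.55 (SE 0.11). An interaction of genotype with Y-linked transcripts missed the threshold for Hmox1 (limma adjusted p = 0.909), as for every probe set (0.0% called). Without the kidneys high in liver markers the difference was -0.55 (SE 0.22), and without those high in adrenal cortex markers it was -0.47 (SE 0.26).

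**Figure D1:**
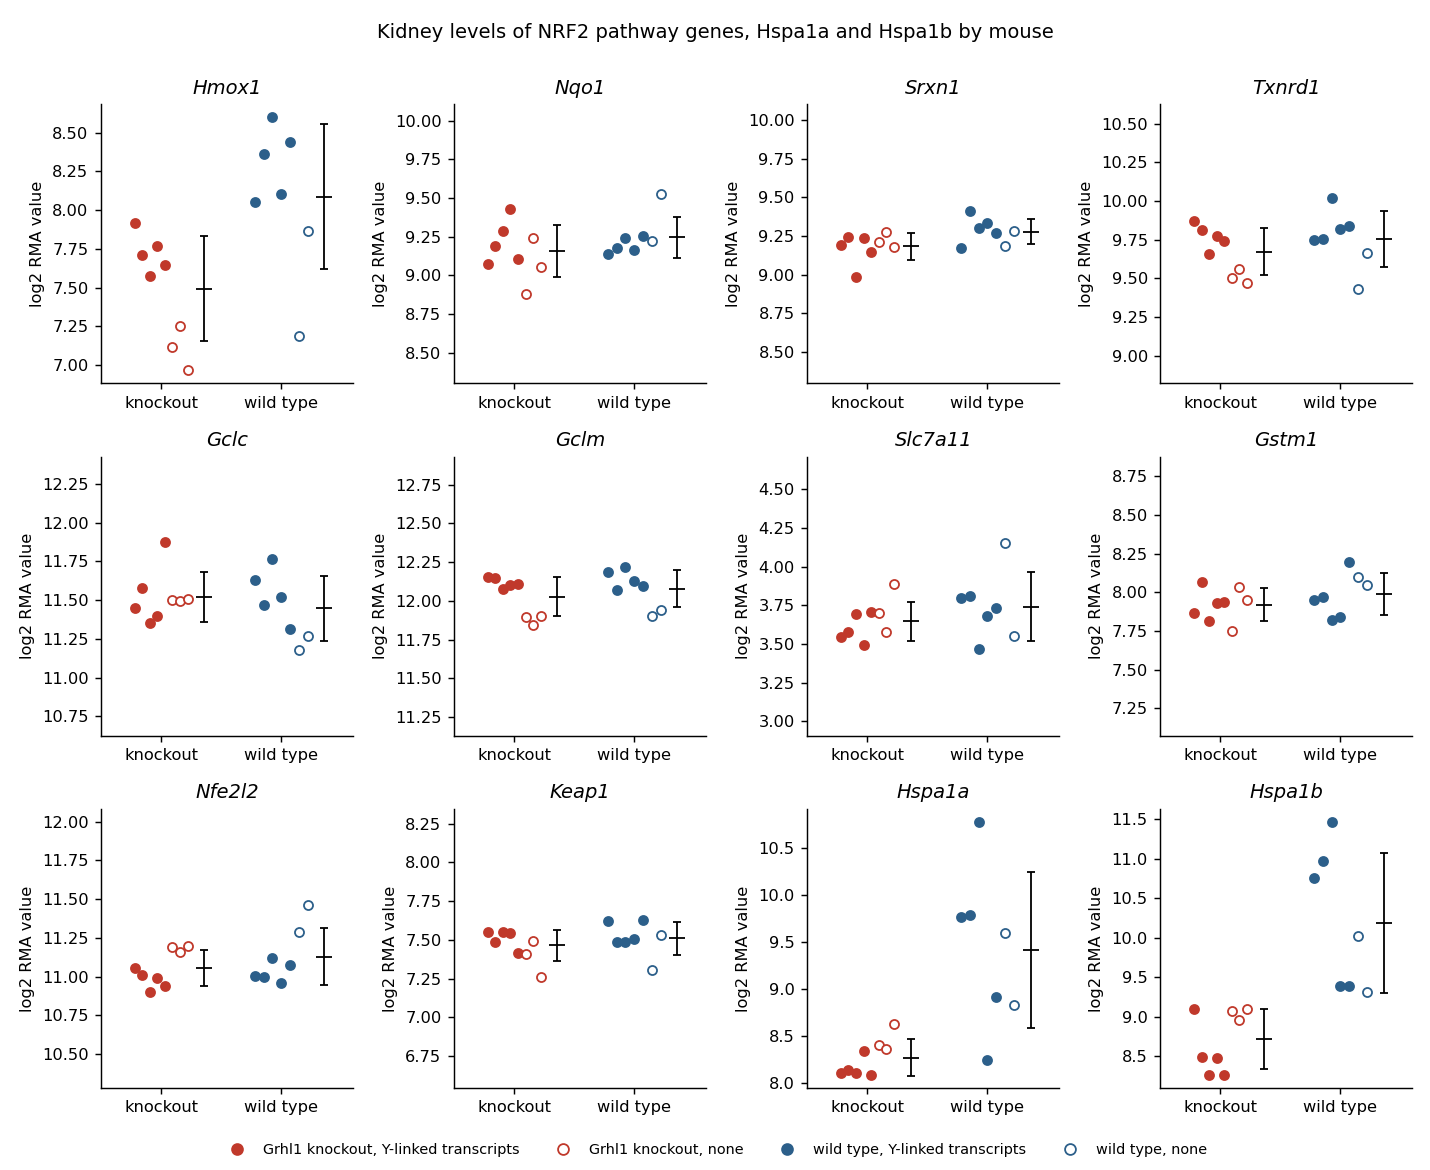
Log2 RMA value (vertical axis) of the 10 NRF2 pathway genes, Hspa1a and Hspa1b in each kidney, knockout left of wild type in every panel. Points are mice, filled where Y-linked transcripts were present and open where not, and the black bars give the mean ± SD. Hmox1 is lower on average in knockout kidneys, and within each genotype the open points lie below the filled ones. The other 9 NRF2 genes, each on its brightest probe set, differ between genotypes by -0.10 to 0.07.

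The differences of the other 9 genes lay close to 0. On the brightest probe set of each gene they ran from -0.10 (Srxn1) to 0.07 (Gclc), against -0.59 for Hmox1. The dimmer probe set of Slc7a11 lay outside this range, at 0.14 (SE 0.06). Of all 10 genes, 9 had a difference below 0 and 1 above, where 45.4% of all probe sets had one below 0. As a description, none of the 10 passed an adjusted p of 0.05 in limma, where 3 of 23521 probe sets did (0.0128%), and 1 of the 10, Hmox1, had an unadjusted p under 0.05, as did 5.55% of probe sets. With the Y-linked mean in the model none of the 10 passed either, against 0.0595% of probe sets, and 2 had an unadjusted p under 0.05, against 8.71%. Over all 15 mice none of the 10 was without overlap, against 0.123% of probe sets.

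Txnrd1 encodes cytosolic thioredoxin reductase, which keeps thioredoxin reduced with NADPH. It read 9.87, 9.81, 9.66, 9.77, 9.74, 9.50, 9.56 and 9.47 in knockout replicates 8 to 15, against 9.75, 9.76, 10.02, 9.82, 9.84, 9.43 and 9.67 in wild-type replicates 1 to 7. The genotypes overlapped throughout, with a difference of -0.08 (SE 0.08), and the lowest values of both were those without Y-linked transcripts. Kidneys with these transcripts were higher by 0.26 among knockout and by 0.29 among wild-type mice. Srxn1, sulfiredoxin, which repairs over-oxidised peroxiredoxins, averaged 9.18 ± 0.09 in knockout and 9.28 ± 0.08 in wild-type kidneys (difference -0.10, SE 0.05).

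Gclc and Gclm encode the catalytic and the modifier subunit of glutamate-cysteine ligase, the first enzyme of glutathione synthesis. Gclm read 12.15, 12.15, 12.07, 12.10, 12.11, 11.90, 11.84 and 11.90 in knockout replicates 8 to 15, against 12.19, 12.07, 12.22, 12.13, 12.10, 11.91 and 11.94 in wild-type replicates 1 to 7. The 2 genotypes lay over each other (difference -0.05, SE 0.06), and in both the kidneys with Y-linked transcripts were higher, by 0.24 among knockout and 0.22 among wild-type mice. Gclc averaged 11.52 ± 0.16 in knockout and 11.45 ± 0.21 in wild-type kidneys (difference 0.07, SE 0.09), and 0.28 more in knockout kidneys among those without Y-linked transcripts.

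Slc7a11 encodes the cystine importer xCT, which feeds glutathione synthesis, and its 2 probe sets were both dim, with 11.5% and 5.74% of all probe sets below their means. The brighter one averaged 3.65 ± 0.13 in knockout and 3.74 ± 0.22 in wild-type kidneys (difference -0.09, SE 0.09), and the dimmer one 3.11 ± 0.13 in knockout and 2.97 ± 0.06 in wild-type kidneys (difference 0.14, SE 0.06). They thus disagree in sign.

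Nqo1 and Gstm1 belong to detoxification. Nqo1, a quinone reductase and a standard readout of NRF2 activity, averaged 9.16 ± 0.17 in knockout and 9.25 ± 0.13 in wild-type kidneys (difference -0.09, SE 0.08), and its difference was 0.02 among kidneys with Y-linked transcripts and -0.32 among those without. Gstm1, a glutathione S-transferase, averaged 7.92 ± 0.11 in knockout and 7.99 ± 0.14 in wild-type kidneys (difference -0.07, SE 0.06).

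Nfe2l2, the regulator itself, averaged 11.06 ± 0.12 in knockout and 11.13 ± 0.18 in wild-type kidneys (difference -0.07, SE 0.08, and 0.01 without the kidneys high in liver markers). Unlike Hmox1, Txnrd1 and Gclm, it was lower in kidneys with Y-linked transcripts than in those without, with differences of -0.21 among knockout and -0.34 among wild-type mice. Keap1 averaged 7.46 ± 0.10 in knockout and 7.51 ± 0.11 in wild-type kidneys (difference -0.05, SE 0.06), and its second, dimmer probe set differed by -0.03 (SE 0.09). The transcript of Nfe2l2 does not measure NRF2 activity, which is set mainly at the level of the protein.

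Hspa1a and Hspa1b differed between genotypes by more than any of the 10 genes. Hspa1b read 9.10, 8.49, 8.26, 8.48, 8.26, 9.08, 8.96 and 9.09 in knockout replicates 8 to 15, against 10.76, 10.98, 11.47, 9.39, 9.39, 10.02 and 9.32 in wild-type replicates 1 to 7. Each knockout value was below each wild-type value, as for 0.0765% of probe sets, with a difference of -1.47 (SE 0.31) or 2.77-fold lower. Hspa1a read 8.10, 8.14, 8.10, 8.34, 8.08, 8.40, 8.36 and 8.63 in knockout replicates 8 to 15, against 9.77, 9.79, 10.78, 8.24, 8.92, 9.59 and 8.83 in wild-type replicates 1 to 7. Here wild-type replicate 4 lay within the knockout range, and the difference was -1.15 (SE 0.27) or 2.22-fold lower. The high values of both genes were wild-type replicates 1, 2, 3 and 6, of which replicate 6 had the lowest Hmox1 of the wild-type mice. Without the kidneys high in adrenal cortex markers, knockout replicates 10 to 13 and wild-type replicates 2 and 3, the difference was -0.86 (SE 0.29) for Hspa1b and -0.76 (SE 0.28) for Hspa1a. In the 5 kidneys without Y-linked transcripts it was -0.62 (SE 0.21) for Hspa1b and -0.75 (SE 0.23) for Hspa1a. The part of adrenal tissue and of the Y-linked split in these differences was not tested.

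To ask which genes Hmox1 varied with, apart from genotype, the genotype mean was subtracted from each value and the deviations were correlated over mice, for the 9 other NRF2 genes, Hspa1a and Hspa1b. These are 11 relations, with permutation p-values within genotypes adjusted over the 11 by Benjamini-Hochberg. Since the kidneys with and without Y-linked transcripts stood apart in Hmox1, each coefficient over 15 mice is given beside that within the 10 kidneys with these transcripts and that over 15 mice with the Y-linked mean regressed out. The 5 kidneys without them are too few for a coefficient.

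Of the 11 genes Txnrd1 had the highest r with Hmox1 over 15 mice and with the Y-linked mean regressed out, while within the 10 kidneys with Y-linked transcripts Nfe2l2 was higher (0.87). For Txnrd1 over 15 mice r was 0.96 (adjusted permutation p = 0.00011, with the raw p of 1e-05 the smallest the resamples can give; rho 0.93, adjusted p = 0.00011). It was 0.98 among the 8 knockout mice (exact adjusted p = 0.000819) and 0.94 among the 7 wild-type mice (exact adjusted p = 0.0131), and 0.95 without knockout replicate 15 and wild-type replicate 3, the 2 samples farthest from the Hmox1 median. All of these sets hold kidneys with and without Y-linked transcripts, which did not overlap in either gene within a genotype. Their p-values therefore do not separate the relation of the 2 genes from that split. With the Y-linked mean regressed out r was 0.86 (adjusted permutation p = 0.00275; rho 0.85, adjusted p = 0.00605). Within the 10 kidneys with Y-linked transcripts it was 0.79, which missed the threshold (permutation p = 0.00924, adjusted p = 0.0508; rho 0.76, adjusted p = 0.116), and without wild-type replicates 3 and 5, the farthest of these, it was 0.58 (exact adjusted p = 0.469). The 2 genes varied together among mice of the same genotype over the 15 mice, while between genotypes Hmox1 differed by -0.59 and Txnrd1 by -0.08.

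**Figure D2:**
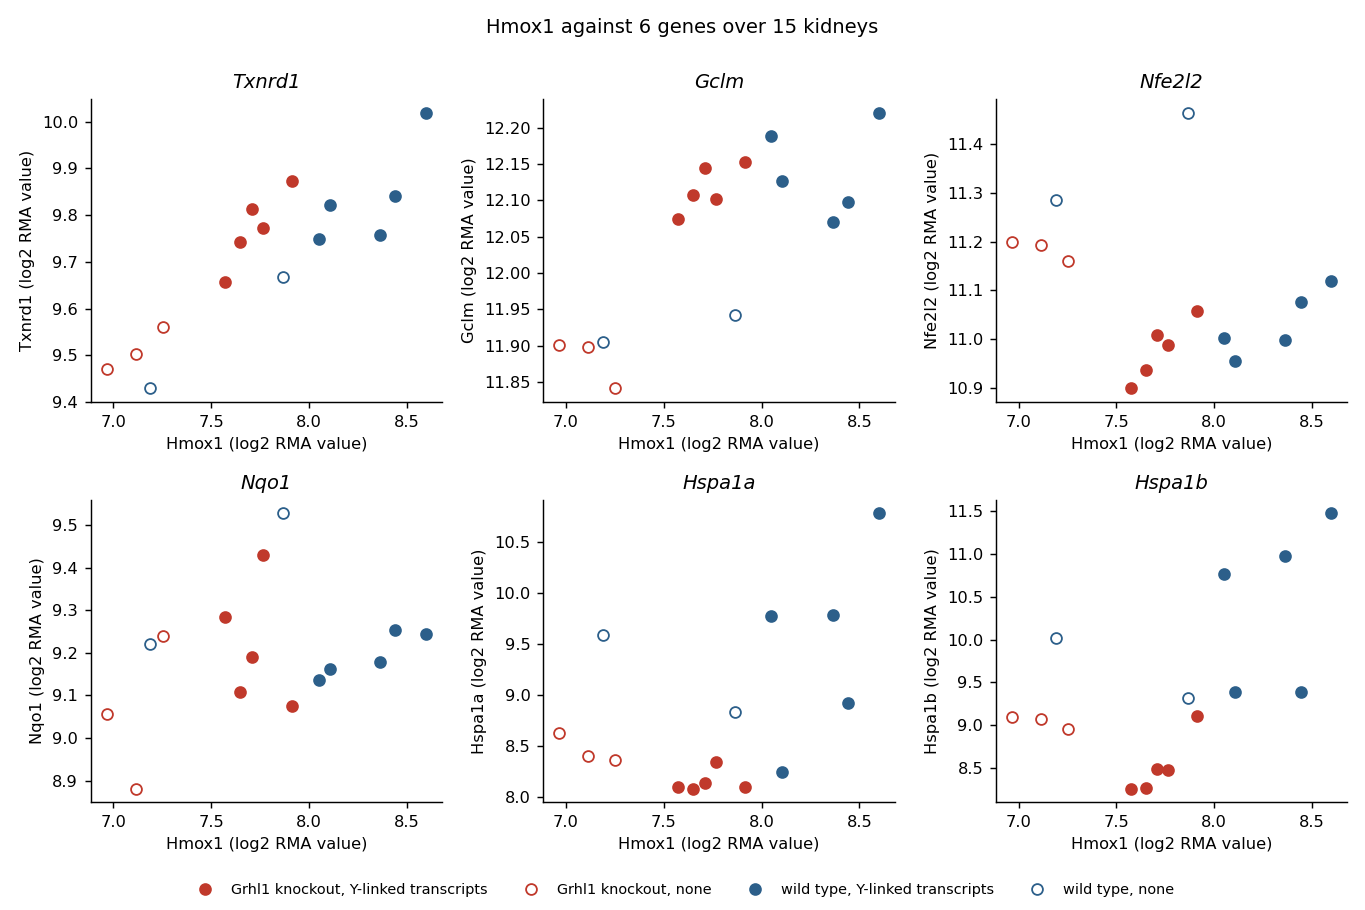
Log2 RMA values of Txnrd1, Gclm, Nfe2l2, Nqo1, Hspa1a and Hspa1b (vertical axes) against Hmox1 (horizontal axis), 1 point per mouse, red for knockout and blue for wild type, filled where Y-linked transcripts were present and open where not. Txnrd1 climbs with Hmox1 in both genotypes, Gclm separates filled from open points, Nfe2l2 is higher at the open points, and Hspa1a and Hspa1b are spread over a wide range in wild-type mice at like Hmox1 levels.

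Hspa1a and Hspa1b showed no relation to Hmox1 that passed the threshold in these 3 sets of mice. For Hspa1a, r over 15 mice was 0.06 (adjusted permutation p = 0.865; rho -0.06, adjusted p = 0.840), -0.24 without the 2 samples farthest from the Hmox1 median, 0.21 with the Y-linked mean regressed out (adjusted permutation p = 0.668; rho -0.04) and 0.49 within the 10 kidneys with Y-linked transcripts (adjusted permutation p = 0.583; rho 0.33). For Hspa1b it was 0.13 (adjusted permutation p = 0.805; rho 0.14, adjusted p = 0.717), -0.04 without those 2 samples, 0.25 with the Y-linked mean regressed out (adjusted permutation p = 0.668; rho 0.15) and 0.45 within the 10 kidneys (adjusted permutation p = 0.583; rho 0.47). Among the 8 knockout mice alone Hspa1a ran against Hmox1, with r = -0.82 (exact adjusted p = 0.0450; rho -0.62, exact adjusted p = 0.253), where the 3 kidneys without Y-linked transcripts held the lowest Hmox1 and the highest Hspa1a. Among the 7 wild-type mice r was 0.24 (exact adjusted p = 0.661). Without the kidneys high in adrenal cortex markers r was -0.52 for Hspa1a (exact adjusted p = 0.344) and -0.26 for Hspa1b (exact adjusted p = 0.681). Without those high in liver markers it was -0.35 for Hspa1a (adjusted permutation p = 0.475) and -0.17 for Hspa1b (adjusted permutation p = 0.815). The 2 HSP70 genes followed each other at r = 0.88 over 15 mice. Pooled without regard to genotype, r with Hmox1 was 0.48 for Hspa1a (adjusted permutation p = 0.127) and 0.54 for Hspa1b (adjusted permutation p = 0.105), which includes the genotype difference that all 3 share.

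Gclm, Nfe2l2 and Keap1 gave different answers in the different sets of mice. For Gclm r was 0.83 over 15 mice (adjusted permutation p = 0.00182; rho 0.73), but 0.22 with the Y-linked mean regressed out (adjusted permutation p = 0.668) and 0.23 within the 10 kidneys with Y-linked transcripts (adjusted permutation p = 0.859), so the relation over 15 mice did not hold within them. For Nfe2l2 the sign turned: r was -0.61 over 15 mice (adjusted permutation p = 0.0666), 0.62 with the Y-linked mean regressed out (adjusted permutation p = 0.113; rho 0.58) and 0.87 within the 10 kidneys (adjusted permutation p = 0.0344; rho 0.79, adjusted p = 0.116), and in the last of these sets the call was lost without wild-type replicates 3 and 5 (0.72, exact adjusted p = 0.458). Over 15 mice the relation passed without wild-type replicate 7 (-0.68, adjusted permutation p = 0.0319). For Keap1 r was 0.71 over 15 mice (adjusted permutation p = 0.0208; rho 0.48, adjusted p = 0.225), 0.46 with the Y-linked mean regressed out (adjusted permutation p = 0.248) and -0.093 within the 10 kidneys (adjusted permutation p = 0.901). On its second, dimmer probe set r was -0.07, -0.23 and -0.63 in the same 3 sets. The call of the brighter probe set over 15 mice was lost without wild-type replicate 6 (0.52, adjusted permutation p = 0.195) or knockout replicate 15 (0.64, adjusted permutation p = 0.103).

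Slc7a11 ran against Hmox1 on the brighter of its dim probe sets. There r was -0.72 over 15 mice (adjusted permutation p = 0.0208; rho -0.49, adjusted p = 0.225), -0.84 with the Y-linked mean regressed out (adjusted permutation p = 0.00413; rho -0.75, adjusted p = 0.0192) and -0.65 within the 10 kidneys (adjusted permutation p = 0.264). Without wild-type replicate 6, which had the highest Slc7a11 value of 4.15, r was -0.48 (adjusted permutation p = 0.195), and the call was also lost without wild-type replicate 3 (adjusted permutation p = 0.0555) or knockout replicate 15 (adjusted permutation p = 0.103). The other probe set gave -0.10, so this relation was seen on 1 of 2 probe sets.

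The other 4 NRF2 genes showed no relation past the threshold in any of the 3 sets. Over 15 mice r was 0.42 for Gclc, 0.25 for Srxn1, 0.17 for Nqo1 and -0.16 for Gstm1 (adjusted permutation p from 0.275 for Gclc to 0.742 for Gstm1). With the Y-linked mean regressed out r was 0.54 for Srxn1 (adjusted permutation p = 0.113), 0.16 for Gclc, 0.24 for Nqo1 and -0.03 for Gstm1. Within the 10 kidneys with Y-linked transcripts it was 0.44 for Srxn1, -0.03 for Gclc, 0.15 for Nqo1 and 0.12 for Gstm1. The mean of the 7 target genes other than Hmox1 correlated with it at 0.71 over 15 mice, at 0.24 with the Y-linked mean regressed out and at 0.31 within the 10 kidneys, and the mean of Hspa1a and Hspa1b at 0.10, 0.24 and 0.49 in the same 3 sets. These means are descriptions without a p-value. Across the 7 targets r over 15 mice ran from -0.72 for Slc7a11 to 0.96 for Txnrd1.

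**Figure D3:**
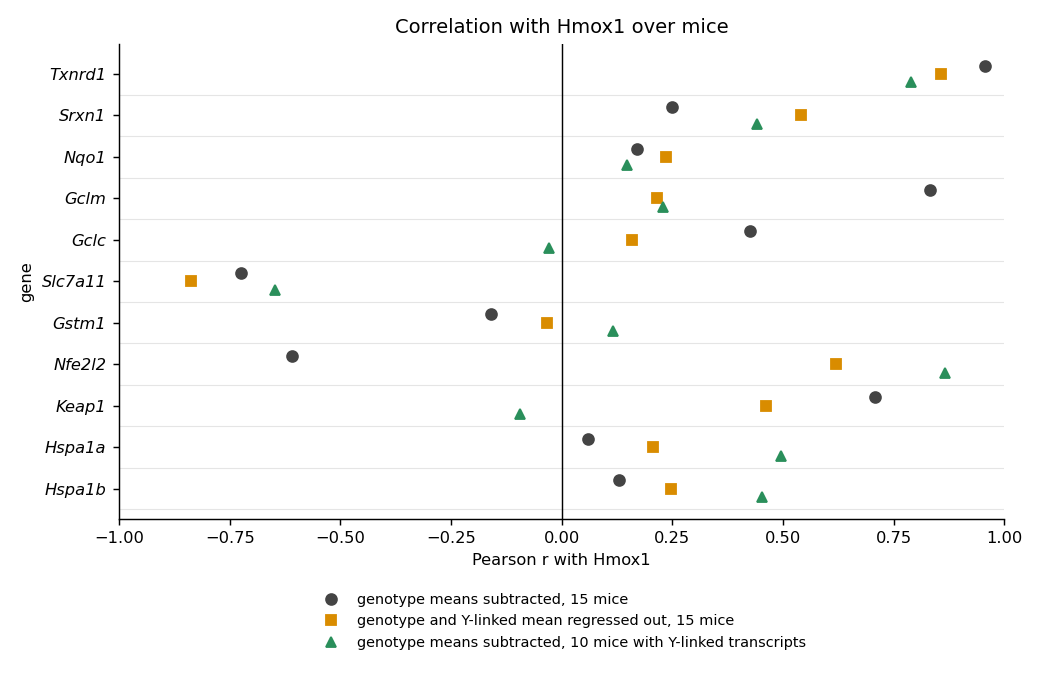
Pearson r with Hmox1 (horizontal axis) for 11 genes (vertical axis) over 15 mice after the genotype means were subtracted (circles), with the Y-linked mean regressed out as well (squares), and within the 10 mice with Y-linked transcripts (triangles). Txnrd1 stays between 0.79 and 0.96, Nfe2l2 changes sign, Gclm drops to 0.22 and 0.23, and Hspa1a and Hspa1b lie between 0.06 and 0.49.

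Among all 22179 other genes Txnrd1 had the highest r with Hmox1, both over 15 mice and with the Y-linked mean regressed out, and rank 210 within the 10 kidneys with Y-linked transcripts. The next over 15 mice were Sema3c (0.94), Dcaf10 (0.94), Lrpprc (0.93), Mettl7b (0.92), Def8 (0.92), Nat8f2 (0.92), Cyp4a12b (0.92), Tiparp (0.91) and Slc22a12 (0.91). All 10 of these also followed the Y-linked mean, with r from 0.83 for Txnrd1 to 0.97 for Cyp4a12b, and within the 10 kidneys their r with Hmox1 ran from -0.22 (Slc22a12) to 0.79 (Txnrd1). Hmox1 itself correlated with the Y-linked mean at 0.85 and Gclm at 0.93, while Nfe2l2 did so at -0.89. Of all genes, 14.5% had an r above 0.5 with Hmox1 over 15 mice and 3.86% with the Y-linked mean regressed out, so a high r over 15 mice is common.

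The wider lists of pathway genes were chosen with earlier results of these data known, and the limma fit called none of their members at an adjusted p under 0.05. Over all genes the median difference was 0.01, with 12130 higher and 10050 lower in knockout kidneys, 1 of them called higher and 2 lower, and 1234 with an unadjusted p under 0.05.

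Of 37 other NRF2 targets 30 were measured, 15 of them higher and 15 lower in knockout kidneys, with a median difference of 0.0023 and 4 at an unadjusted p under 0.05. Osgin1, an oxidative stress-induced growth inhibitor, was the one farthest below 0. It averaged 9.61 ± 0.14 in knockout and 10.03 ± 0.23 in wild-type kidneys (difference -0.43, SE 0.09, limma adjusted p = 0.274), and 7 of 8 knockout values lay below the lowest wild-type value. Its r with Hmox1 was 0.43 over 15 mice, 0.66 with the Y-linked mean regressed out and 0.78 within the 10 kidneys. Aldh3a1, an aldehyde dehydrogenase, differed by -0.17 (SE 0.07, limma adjusted p = 0.798). The median r of the 30 targets with Hmox1 was 0.15 over 15 mice and 0.16 with the Y-linked mean regressed out. Within the 10 kidneys it was -0.05, beside 0.0074 over all genes.

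Of 13 regulators and partners of NRF2 12 were measured, 6 higher and 6 lower (median difference -0.01, 3 at an unadjusted p under 0.05). Mafk, a small MAF partner, differed by 0.19 (SE 0.07, limma adjusted p = 0.738) and Btrc, the β-TrCP subunit of a ubiquitin ligase that also acts on NRF2, by 0.13 (SE 0.05, limma adjusted p = 0.766). Bach1, the haem-sensing repressor of Hmox1, differed by -0.11 (SE 0.05).

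Of 23 genes of haem and iron handling 20 were measured, 9 higher and 11 lower (median difference -0.01, 2 at an unadjusted p under 0.05). Alas1, the first enzyme of haem synthesis, averaged 10.03 ± 0.17 in knockout and 10.39 ± 0.27 in wild-type kidneys (difference -0.36, SE 0.11, limma adjusted p = 0.610), and Alad, the next enzyme, differed by 0.15 (SE 0.06, limma adjusted p = 0.834). Hmox2, the constitutive haem oxygenase, differed by -0.01 (SE 0.04). Hpx (-0.87, SE 0.66) and Hp (-0.56, SE 0.33), plasma proteins made by liver, lay lowest in the list, and 13 of 14 liver markers were lower too, at a mean of 6.98 to 9.05 in knockout and 7.19 to 10.59 in wild-type kidneys; their part in those 2 values was not tested. Of 23 other glutathione and peroxide enzymes 20 were measured, 12 higher and 8 lower (median difference 0.01, 0 at an unadjusted p under 0.05 and 0 called in limma), with Txnrd3 at 0.20 (SE 0.11, limma adjusted p = 0.950) and Prdx4 at -0.11 (SE 0.06, limma adjusted p = 0.950).

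Of 21 heat shock genes 18 were measured, 2 higher and 16 lower, with a median difference of -0.26 and 10 at an unadjusted p under 0.05. Hspa8, the constitutive HSP70, averaged 12.70 ± 0.09 in knockout and 12.92 ± 0.06 in wild-type kidneys (difference -0.23, SE 0.05, limma adjusted p = 0.222), with 8 of 8 knockout values below the lowest wild-type value, at the same background of 0.0765%. Chordc1, an HSP90 partner, differed by -0.53 (SE 0.14, limma adjusted p = 0.446), and with the Y-linked mean in the model it was the 1 member called (difference -0.50, limma adjusted p = 0.0102), where 0.0383% of probe sets were called lower. The median r of the list with Hmox1 was 0.63 over 15 mice, with 10 of 18 above 0.5. It was 0.25 with the Y-linked mean regressed out, with 1 of 18 above 0.5. Within the 10 kidneys with Y-linked transcripts it was 0.47, beside 0.0074 over all genes.

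**Figure D4:**
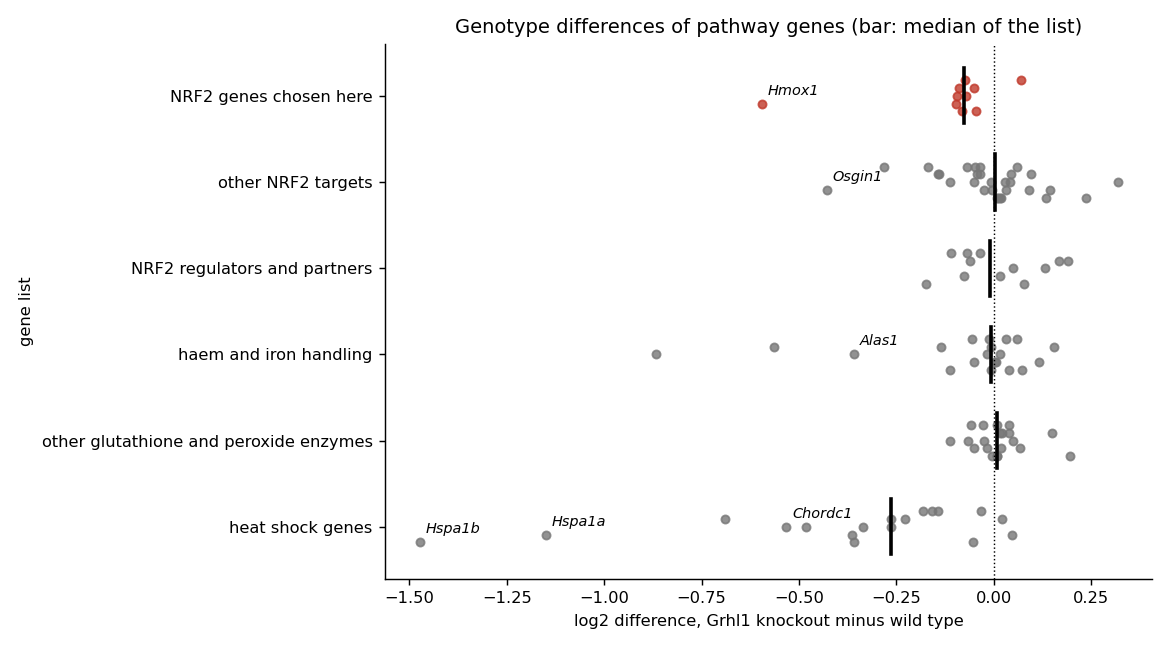
Log2 difference, knockout minus wild type (horizontal axis), of each measured gene in 6 gene lists (vertical axis), 1 point per gene, with a black bar at the median of the list. Hmox1 at -0.59 lies apart from the other 9 NRF2 genes of its row, the other NRF2 targets centre on 0.0023, and the heat shock genes centre on -0.26 with Hspa1b at -1.47.

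Hmox1 is also a gene of macrophages that clear haem, and markers of these cells were set beside it. Of 15 macrophage and myeloid markers 14 were lower in knockout kidneys, with a median difference of -0.08, and their mean ran from 6.52 to 6.89 in knockout and from 6.59 to 7.02 in wild-type kidneys. The mean ran against Hmox1 over 15 mice (r = -0.62) and was at 0.18 with the Y-linked mean regressed out, as a description, and the part of these cells in the Hmox1 difference was not tested. In whole kidney RNA, fewer cells of a type and less RNA per cell cannot be told apart.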

How the data were processed

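The authors deposited log2 values per probe set, made with robust multi-array average (RMA) per the submitters' processing notes; its software and version, and the array's genome build, are not given in the sources used here. RMA equalises the arrays and compresses dim probe sets, so their differences understate the change. Per the labels' protocols, the Ambion WT Expression kit was used to label 500 ng of total RNA. Scanner files were not analysed here. Precision is limited by how many arrays there are.

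Of 41345 probe sets, 23521 named 1 gene by the platform annotation, 1814 named several and 16010 were unnamed here; 23328 symbols were updated through Entrez IDs to RefSeq GRCm38.p6. The probe set with the highest mean stood for a gene, and 1082 genes had more than 1. No 2 arrays were identical. Samples were grouped by their titles and the Grhl1 status label. Sex and litter are not stated in the labels, so p-values measure the spread between these samples only.

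The deposited log2 values were fitted with limma 3.58.1 in R 4.3.3 (lmFit and eBayes, no trend, no covariate, all 15 arrays, two-sided, Benjamini-Hochberg over 23521 probe sets), with moderated SE. Correlations used Python 3.11.15, numpy 2.4.6, scipy 1.17.1 and pandas 2.3.3, with 100000 two-sided permutations within genotypes, or exact enumeration where fewer were possible. The Y-linked mean was that of 3 genes. Fit and correlation were tested on simulated data. For the fit these had independent normal noise, with no Y-linked split and no liver or adrenal transcripts, so that test does not cover these features of the arrays.

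The genes, lists and tests were chosen with earlier results of these data known. Beside the 10 genes, Hspa1a and Hspa1b, the text names in each list the members past the threshold, or the 2 with the smallest unadjusted p, and the 10 genes with the highest r with Hmox1. Bach1, Hmox2, Hpx and Hp were named after their values were seen. The probe set annotated to both Hspa1a and Hspa1b was left out. The alternatives were the Y-linked mean in the model, samples high in liver or adrenal markers left out, each sample left out, arrays centred, a trended eBayes, dim probe sets filtered and all probe sets of a gene averaged. The split by Y-linked transcripts and the sets without the 2 farthest samples within it were chosen after seeing the data.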

Additional observations from a re-analysis of the deposited data

Results flagged for a closer look

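For each of the 10 genes, Hspa1a and Hspa1b, the highest or lowest mouse of each genotype was set against its nearest neighbour by Dixon's criterion at 95%, in 24 groups in all, of which chance alone marks about 1 in 20. In 4 groups a mouse stood apart. Srxn1 in knockout replicate 10 was the lowest of its group at 8.99, with the next at 9.15. Gclc in knockout replicate 12 was the highest of its group at 11.88, with the next at 11.58. Nqo1 in wild-type replicate 7 was the highest of its group at 9.53, with the next at 9.25, and this kidney was also the highest in liver markers, at 10.59; their part in the value was not tested. Keap1 in wild-type replicate 6 was the lowest of its group at 7.31, with the next at 7.49. The 4 values fell in 4 different mice, and none of them was a value of Hmox1, Txnrd1, Hspa1a or Hspa1b.

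An interaction of genotype with Y-linked transcripts was tested for the same 12 genes, and none passed an adjusted p of 0.05 in limma, nor did any of the 23521 probe sets, of which 1655 had an unadjusted p under 0.05. The largest difference of differences was that of Hspa1b, -1.25 (SE 0.62, limma adjusted p = 0.715), from knockout minus wild type differences of -1.88 in kidneys with Y-linked transcripts and -0.62 in those without.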

How the results depend on the processing

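No paired analysis was possible because the groups share no replicate numbers. The lower Hmox1 of knockout kidneys kept its direction under all 23 alternatives, from -0.74 to -0.51 with 1 mouse left out. The count of probe sets past the threshold was 3, and it was 14 with the Y-linked mean in the model, 1 in the 5 kidneys without Y-linked transcripts, 2 to 6 with 1 mouse left out (6 without knockout replicate 8), and 0 in limma among probe sets above the median mean, of which 771 had an unadjusted p under 0.05. Among the pathway lists 1 member was called with that mean in the model, against 0 without it. The correlation of Hmox1 with Hspa1a was -0.52 without the kidneys high in adrenal cortex markers and -0.35 without those high in liver markers. It turned to -0.82 among knockout mice alone and ran from -0.32 to 0.16 with 1 mouse left out, and that with Hspa1b from -0.12 to 0.25. That with the mean of the 7 targets, 0.71 over 15 mice and 0.68 to 0.74 with 1 mouse left out, was 0.94 among wild-type mice, 0.24 with the Y-linked mean regressed out, 0.20 without the 2 farthest mice as well, and 0.13 within the 10 kidneys without their 2 farthest; the cause was not tested. In that last set Gclm turned to -0.14 and Keap1 to -0.12, in the 10 kidneys Keap1 to -0.093 and Nfe2l2 to 0.87, and Gclm was at -0.042 with the Y-linked mean regressed out and the 2 farthest mice left out. Txnrd1 passed in all 15 sets with 1 mouse left out, with r from 0.94 to 0.98, each set still holding kidneys with and without Y-linked transcripts. The 2 probe sets of Slc7a11 had low values, with 11.5% and 5.74% of all probe sets below their means, and signal over background was not analysed here.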

Other observations

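With the Y-linked mean regressed out, the genes closest to Hmox1 over 15 mice were Txnrd1 (r = 0.86), Atg16l1 (0.83), Tas2r122 (0.82), Eif2b3 (0.82), Rab33b (0.82), Rbm6 (0.80), Rhou (0.80), Sema3c (0.80), Gm21133 (0.79) and Ehhadh (0.79), as a description. Of these, Txnrd1 and Sema3c were also among the 10 closest before that step. Atg16l1 encodes an autophagy protein and Ehhadh a peroxisomal enzyme of fatty acid oxidation. Within the 10 kidneys with Y-linked transcripts their r with Hmox1 was between 0.64 (Gm21133) and 0.87 (Rbm6).

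Within the heat shock list r with the Y-linked mean over 15 mice was spread from -0.72 (Cryab) to 0.94 (Hsp90aa1), with Hspb8 at -0.28, Hspb1 at 0.22, Hsf2 at 0.37, Hspa8 at 0.64 and Hspa4l at 0.73 between them. Hspd1 and Hspe1, the mitochondrial chaperonin, Hsp90aa1 and Chordc1 correlated with it at 0.83 to 0.94 and with Hmox1 at 0.83 to 0.85 over 15 mice. Dnajb1 and Bag3, co-chaperones of HSP70, correlated with it at -0.01 and -0.04 and with Hmox1 at 0.09 and 0.10, as Hspa1a and Hspa1b did (0.06 and 0.13). Within the 10 kidneys with Y-linked transcripts the r of Dnajb1 and Bag3 with Hmox1 was 0.86 and 0.85, beside 0.49 for Hspa1a and 0.45 for Hspa1b. Over 15 mice with the Y-linked mean regressed out it was only 0.18 for Dnajb1 and 0.26 for Bag3. These genes were chosen after their values were seen, and the coefficients are descriptions.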
